A study of Caenorhabditis elegans with 2 samples.

Results

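FOS-1 peaks whose summits sit in clusters of GATA sites made up 1716 of the 7446 peaks that chromatin immunoprecipitation followed by sequencing (ChIP-seq) gave for the C. elegans factor FOS-1. A GATA site was TGATAA on either strand, where the first base could also be A and the last also G. A peak was a member when at least 2 such sites, none overlapping another, lay within 50 bp of its summit and the AP-1 site (TGACTCA, which is TGAGTCA on the other strand) did not. The members were chosen by sequence and position, and the signal of a peak had no part in the choice beyond its place in the list. The other peaks were 2082 with 1 site, 3384 with 0 sites and 264 with an AP-1 site. Of those 264, 34 also held at least 2 GATA sites, and they were left out of the members by the rule. Among the members 1325 held 2 sites, 328 held 3, 61 held 4 and 2 held 5. No member window overlapped the window of another member, and 88 members had another one within 1000 bp.

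The animals were whole L2 larvae of strain OP304, pooled over both sexes, with the genotype unc-119(ed3) III; wgIs304, where wgIs304 is an insertion that expresses eGFP-fos-1. The labels give 1 group of 2 biological replicates, so there is no comparison of conditions, and the comparisons run between classes of peak. The labels do not name the promoter of the transgene or the cells that make the protein, and whole animals mix all tissues. The peaks are the series' list that passed the irreproducible discovery rate (IDR), which keeps calls whose ranks hold up between replicates.

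FOS-1 is a basic leucine zipper (bZIP) protein of the Fos family, and such proteins bind DNA in pairs at the AP-1 site. GATA factors are zinc finger proteins named after the core of the site that they bind. In C. elegans the GATA factor ELT-2 drives the genes of the intestine, and ELT-1 and ELT-3 act in the epidermis. No GATA factor was measured in these files, and a match to the site's letters is not a site shown to be bound.

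The windows that reach 50 bases to both sides of the summit show how the sites lie. They were read from the RefSeq genome of assembly WBcel235, the same as ce11, on the + strand and 5′ to 3′. Capitals mark the counted GATA sites, so that TTATCA and CTATCT in capitals are TGATAA and AGATAG read from the other strand. The first 4 belong to the members of highest signal, near srz-62 (chrIV:3899973-3900073), cpr-3 (chrV:15298777-15298877), T24E12.13 (chrII:3786663-3786763) and egl-27 (chrII:6842837-6842937). The next show many sites, near zig-13 (chrIII:154326-154426) with 4 and srdh-1 (chrII:8266716-8266816) with 5. The last belong to genes of the intestine, lys-8 (chrII:5585922-5586022) and elt-2 (chrX:10480761-10480861).
srz-62: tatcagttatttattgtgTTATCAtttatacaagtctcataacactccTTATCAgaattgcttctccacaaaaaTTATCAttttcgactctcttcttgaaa
cpr-3: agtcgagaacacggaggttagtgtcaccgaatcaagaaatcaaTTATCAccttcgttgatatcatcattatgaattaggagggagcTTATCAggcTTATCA
T24E12.13: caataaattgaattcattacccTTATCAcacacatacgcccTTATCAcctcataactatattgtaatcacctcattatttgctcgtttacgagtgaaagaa
egl-27: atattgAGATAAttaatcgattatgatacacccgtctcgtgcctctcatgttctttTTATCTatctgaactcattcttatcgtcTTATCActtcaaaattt
zig-13: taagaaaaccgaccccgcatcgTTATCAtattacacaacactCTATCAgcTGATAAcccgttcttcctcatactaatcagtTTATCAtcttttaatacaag
srdh-1: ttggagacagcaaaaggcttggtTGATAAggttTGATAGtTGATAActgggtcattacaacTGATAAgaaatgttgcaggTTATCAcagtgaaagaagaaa
lys-8: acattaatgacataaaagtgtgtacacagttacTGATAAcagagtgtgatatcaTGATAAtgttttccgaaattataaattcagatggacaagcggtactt
elt-2: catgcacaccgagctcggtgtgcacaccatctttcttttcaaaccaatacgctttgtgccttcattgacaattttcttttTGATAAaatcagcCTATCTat

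In the srz-62, cpr-3 and T24E12.13 windows every counted site reads on the same strand. In the T24E12.13 window both sites are followed by G when read on their own strand, which gives TGATAAG, and this longer form is called extended here. The cpr-3 window holds an extended pair with centres 9 bp apart, while the site near the summit is not extended. The zig-13 window holds 4 sites and no extended one. The elt-2 window holds 2 sites of different core, both to the right of the summit. The extended form was taken up because it was already known to be frequent at these peaks.

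The members of highest signal had from 2 to 4 sites. Signal is the value that the authors' peak caller gave each call, without a unit that carries over between lists. The peak upstream of srz-62, a gene of a chemoreceptor family, had a signal of 419.2 in the IDR list, 281.8 in replicate 1 and 136.4 in replicate 2. The peak upstream of cpr-3, which encodes a cathepsin B-like protease, had 377.8, with 256.0 and 124.0 in the replicates. The T24E12.13 peak had 344.1, with 230.5 and 114.4. These 3 peaks were high in both replicates and ranked 8, 12 and 16 among all 7446. The peak in an intron of egl-27, which encodes a chromatin protein related to the metastasis-associated MTA proteins, had 331.2, with 224.1 and 112.4. Of the 20 members of highest signal, which reach down to 242, 14 lay in a promoter window (1000 bp upstream to 250 bp downstream of a protein-coding start), 2 in introns and 4 between genes. An extended site was present in 15 of the 20, and 7 had at least 2.

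**Figure D1:**
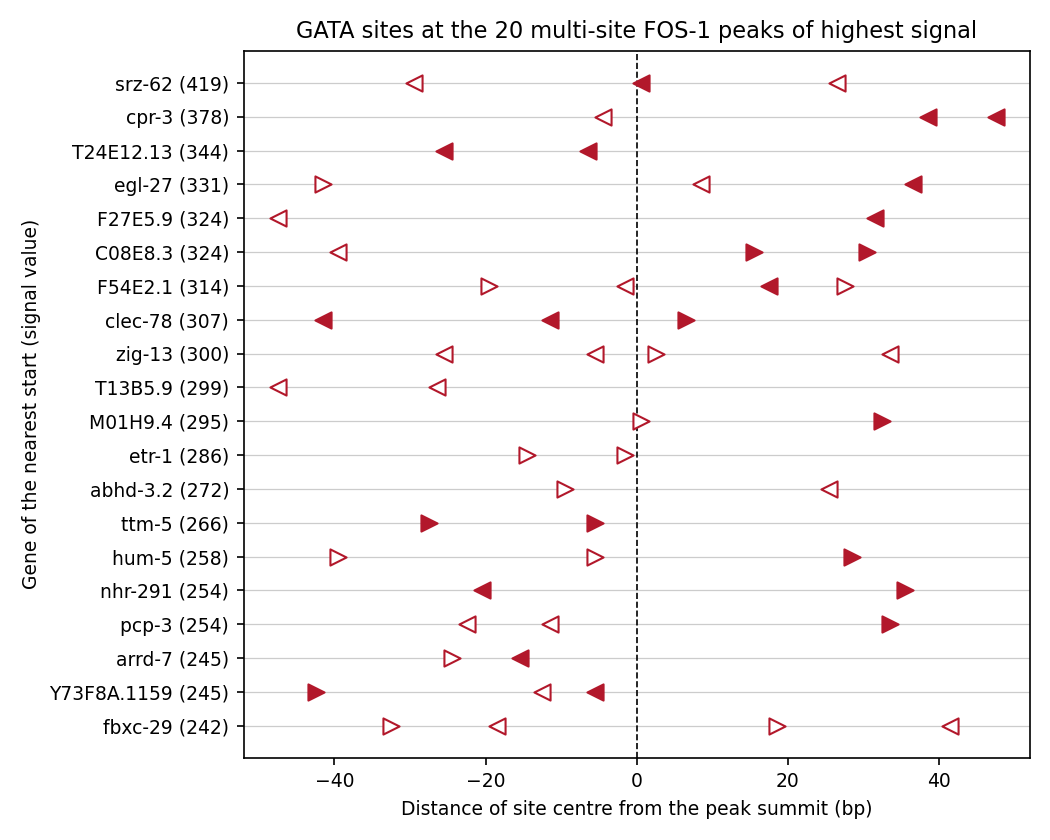
Positions of the GATA sites at the 20 members of highest signal. The horizontal axis is the distance of the site's centre from the summit in bp, each line is 1 peak named by the gene of the nearest start with its signal value, triangles point along the strand of the site and filled triangles are the extended form. Of the 20 peaks 9 had 2 sites, 8 had 3 and 3 had 4, and 15 had at least 1 filled triangle.

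Of the IDR peaks 23.0% (95% Wilson interval 22.1 to 24.0) were members, against 408 of 14892 flanking windows, or 2.74% (2.49 to 3.01). The flanking windows were as wide as those at the summit, with their centres 300 bp away to the left and right. The ratio was 8.41. When the genome was cut into windows of that length, 2.51% of them held at least 2 sites and no AP-1 site, and of windows in promoters 2.89% did. The strongest 7446 calls of replicate 1 taken alone had 22.9% and those of replicate 2 had 19.8%. Of the 20145 low-ranked calls, those that the pooled data gave outside any IDR peak, 5.83% held such a cluster. At IDR summits there were 0.824 windows with at least 2 sites for each window with 1 site, in the flanks 0.153. That GATA sites are frequent at these peaks was known when the members were chosen, so these shares are a description and no test of them is given. Tests and intervals here run over peaks, pairs or sites, which are not replicates, and they cover counting error only.

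Beyond the window that defined the members, the excess of sites faded. A further site 51 to 150 bp from the summit was present at 48.6% of all IDR peaks and at 50% (47.6 to 52.4) of members. It was present at 44.4% of 0-site peaks, which was lower (two-sided Fisher's exact p = 0.00016, adjusted p = 0.000384 over 12 tests), and at 54.6% of 1-site peaks, which was higher (exact p = 0.00499, adjusted p = 0.00855). The first difference turned to 40.6% against 40.9% in a ring of the same breadth that ended 200 bp out, where members against 1-site peaks gave 40.6% against 42.7% and did not pass. With members chosen within 30 bp neither difference passed, at 48.4% against 46.7% and 52.9%. With members chosen within 75 bp, and the outer region moved out by as much, the difference from 1-site peaks turned, at 46.0% against 45.8%.

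**Figure D2:**
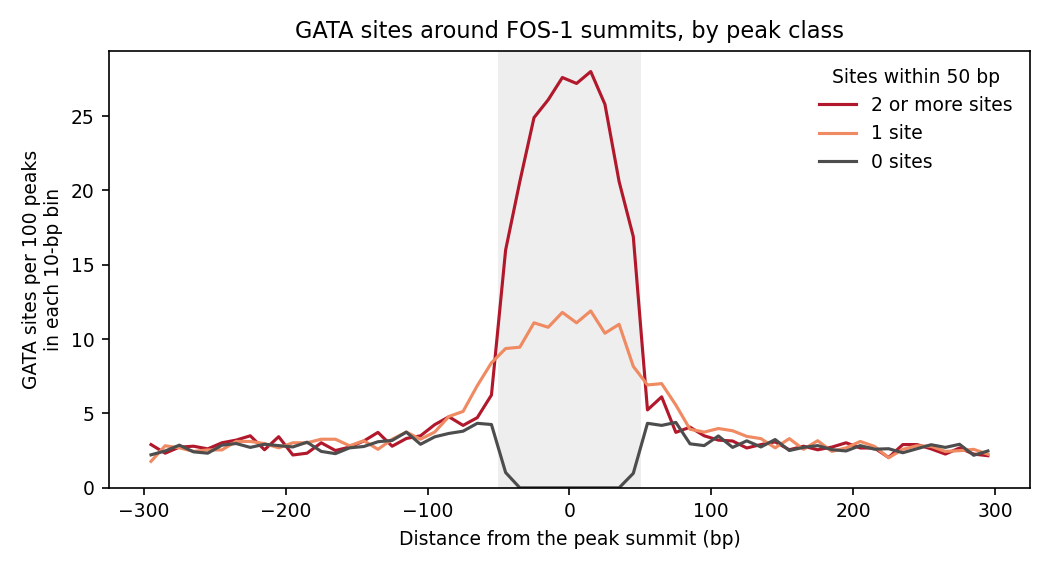
GATA sites per 100 peaks in bins of 10 bp, by distance from the summit in bp, for peaks with at least 2 sites, 1 site and 0 sites within 50 bp. The shaded band is the window that defines the classes, so the contrast inside it follows from the rule. Outside it the lines come together, at 3.03, 2.55 and 2.87 sites per 100 peaks in the bin centred at -245 bp.

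The summit lay close to a site and often between sites. The median distance from the summit to the centre of the nearest site was 10.5 bp (9.50 to 11.5) in members and 12.5 bp (11.5 to 14.5) in flanking windows with at least 2 sites, where the centre of the window took the summit's place. The summit lay between the outermost sites in 63.5% of members (61.2 to 65.8) and the centre did so in 56.4% of those flanking windows (51.5 to 61.1). In 581 members with 2 sites exactly 1 was extended, and in 323 of these, or 55.6% (51.5 to 59.6), it was the one nearer to the summit. These differences were not tested. Members also held more sites per window, with 2172 adjacent pairs in 1716 windows against 455 in 408 flanking windows. The 2 contrasts with the flanks are thus not at equal numbers of sites.

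The letters of the sites differed from those around them. The core TGATAA made up 69.6% (68.2 to 71.1) of the 3888 sites of members, 62.8% (60.7 to 64.8) of sites of 1-site peaks and 42.7% (41.1 to 44.4) of sites in flanking windows. AGATAA made up 12.8% in members and 27.9% in the flanks, TGATAG 11.3% and 16.5%, and AGATAG 6.22% and 13.0%. In members the base after TGATAA was G in 43.6%, C in 21.9%, A in 20.9% and T in 13.6%. It was G in 52.3% at 1-site peaks, more often than in members, and in 17.2% in flanking windows. The extended form made up 7.33% of the sites in flanking windows. These shares of the next base and this flank share were not tested. The extended form TGATAAG made up 30.3% of member sites (28.9 to 31.8) and 32.8% of 1-site peaks' sites (30.8 to 34.9), a difference of -2.46 percentage points that did not pass the test (two-sided Fisher's exact p = 0.0531, adjusted p = 0.0796). It passed when peaks with an AP-1 site were kept, at 30.3% against 33.0%, and when overlapping sites were counted, at 30.2% against 33.0%, and it turned with the window of 75 bp, at 28.9% against 28.4%. Counting all cores that start with T instead turned the difference, at 80.9% in members against 72.2%. That difference passed (two-sided Fisher's exact p = 1.66e-14, adjusted p = 9.97e-14). Of the members 765 had 0 extended sites, 737 had 1 and 214 had at least 2.

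Members carried somewhat higher signal than peaks with fewer sites, with wide overlap. The signal ran from 34.0 through a median of 72.3 (interval of the median 69.2 to 74.8) to 419 in members. In 1-site peaks it ran from 34.0 through 63.8 (61.6 to 66.0) to 431, and in 0-site peaks from 33.9 through 60.5 (59.1 to 61.6) to 702. The ranges overlap almost wholly, and the highest signals of the list belong to other peaks. In replicate 1 the medians were 49.3 for members, 44.5 for 1-site and 41.8 for 0-site peaks. In replicate 2 they were 22.3, 20.3 and 19.8. These medians leave out peaks without a call of the replicate, and 1711 and 1706 of the members had one. The order of the medians was thus the same in both, with members 1.18 and 1.13 times the 0-site median and 1.11 and 1.10 times the 1-site median.

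By definition 20% of all IDR peaks are in the fifth of highest signal. Members reached 23.3% (21.4 to 25.4), 0-site peaks 17.5% (16.3 to 18.8) and 1-site peaks 19.4% (17.8 to 21.2). Both differences passed the two-sided Fisher's exact test (against 0 sites p = 9.18e-07, adjusted p = 5.51e-06; against 1 site p = 0.00357, adjusted p = 0.00714). Neither passed within the stronger 3723 peaks, at 20.8% against 18.9% and 18.5%, and the difference from 1-site peaks did not pass with a window of 30 bp, at 22.8% against 21.2%, or outside promoter windows, at 21.4% against 19.6%. The share of G and C in the window moved with the classes, with medians of 35.6% in members, 38.6% in 1-site and 45.5% in 0-site peaks. Among windows of 30 to 45% GC, a choice made after seeing the data, the median signals were 74.4, 65.3 and 55.7, and the shares among the fifth of highest signal were 25.1%, 20.3% and 13.4%.

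By number of sites, the median signal of members was 70.3 (67.9 to 73.4) with 2 sites, 78.8 (72.0 to 84.6) with 3 and 75.2 (62.5 to 97.2) with 4, and these intervals overlap. The pair of members with 5 sites had 132.1, in an intron near srdh-1, and 52.9, in a coding exon near cyp-33D1, a gene of the cytochrome P450 family. With 0, 1 and at least 2 extended sites the medians were 69.2, 73.2 and 82.5 (74.2 to 91.4), and 20.9%, 22.8% and 33.6% of peaks were in the fifth of highest signal. The replicates gave medians of 47.4, 49.6 and 56.6 in the first and 21.7, 21.9 and 25 in the second. In 15 members at least 3 sites were extended, and their median was 117 (77.6 to 159.8). At exactly 2 sites, members with 0, 1 and 2 extended sites had medians of 68.1, 71.6 and 78.4, with intervals that overlap. The same direction was seen outside the members. In 1-site peaks the median was 62.3 (60.3 to 64.4) without the extended form and 68.9 (63.9 to 72.6) with it. These contrasts were chosen after the values were seen and were not tested. At the edge of the rule, the 196 members with fewer than 2 sites within 45 bp had a median of 75.7, and 170 other peaks that would join at 55 bp had 77.9.

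**Figure D3:**
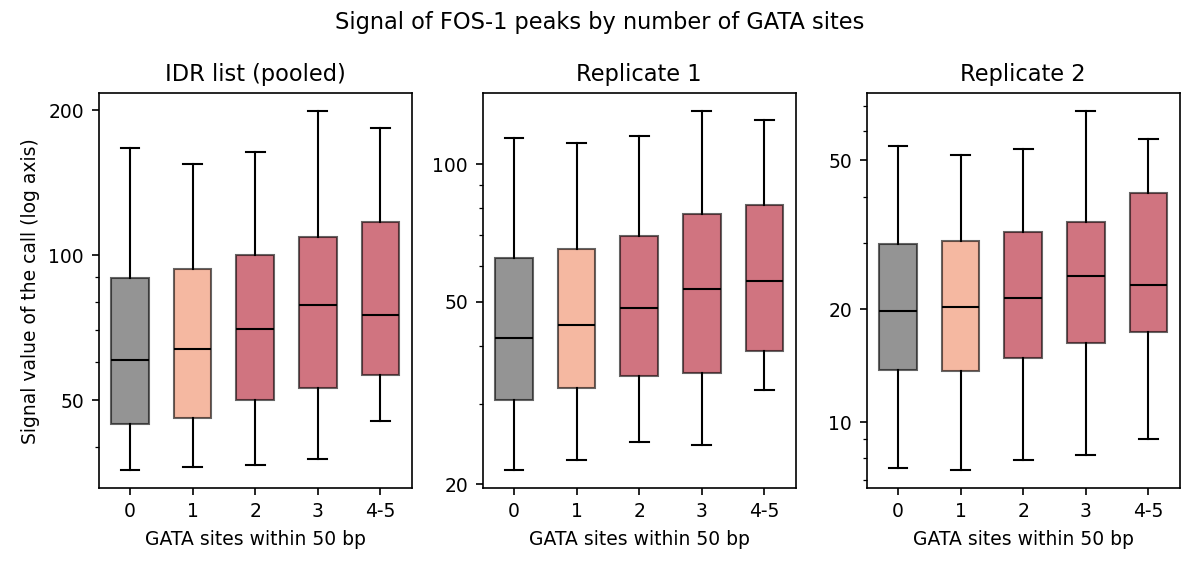
Signal value of the call (log axis, a scale of its own in each panel) by number of GATA sites within 50 bp, in the IDR list and in each replicate's own list. Boxes span the quartiles with the median as a line and whiskers reach from the 5th to the 95th percentile of peaks. In the IDR list the medians are 60.5, 63.8, 70.3 and 78.8 for 0 to 3 sites, and the boxes overlap.

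Members were found more often among the strong calls of both replicates. Of the members 82.9% (81.0 to 84.6) were among the 7446 strongest calls of replicate 1 and of replicate 2, against 77.5% (76.1 to 78.9) of 0-site peaks and 79.5% of all IDR peaks (members against 0-site peaks, two-sided Fisher's exact p = 7.87e-06, adjusted p = 2.36e-05). This share is not independent of the signal. Within the 3723 peaks of highest signal it was 99.1% against 98.7% and did not pass.

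The 1716 members gave 2172 pairs of adjacent sites. The median distance between centres was 25 bp (24.0 to 26.0), with quartiles at 15 and 40 bp, and in the 455 pairs of the flanking windows it was 27 bp (25 to 30). Within 20 bp lay 39.4% of member pairs and 38.5% of flank pairs (two-sided Fisher's exact p = 0.751, adjusted p = 0.82). The most frequent distances in members were 7 and 8 bp with 77 pairs each, followed by 9 bp with 67. Each of the first made up 3.55% of pairs. Short distances were as frequent elsewhere. Within 12 bp lay 19.8% of member pairs, 19.8% of flank pairs and 22.3% of pairs in low-ranked calls. Single distances were not tested. In 34 pairs the sites touched end to end, and 31 of those read on the same strand. Of touching pairs, 10 of 13 in the flanks and 28 of 35 in low-ranked calls did so too. The pairs of 16 to 25 bp made up 23.8% in members and 18.5% in the flanks, a contrast read off after the fact and not tested. With the window of 75 bp the share within 20 bp was 32% against 27.3%, which passed.

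The same strand carried both sites in 59.4% of member pairs (57.3 to 61.4) and in 57.8% of flank pairs (53.2 to 62.3), and this difference did not pass (two-sided Fisher's exact p = 0.53, adjusted p = 0.706). Sites that read towards each other made up 18.1% (16.5 to 19.8) in members and 23.1% (19.4 to 27.2) in the flanks, and sites that read away from each other 22.5% (20.8 to 24.3) and 19.1% (15.8 to 23.0), neither tested. Among members with 2 sites the median signal was 68.0 (61.8 to 75) with centres within 12 bp, 68.4 (65.1 to 73.1) at 13 to 30 bp and 72.8 (68.9 to 77.2) beyond. Same-strand pairs had a median of 68.8, pairs towards each other 72.6 and pairs away from each other 72.1, with intervals that overlap.

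**Figure D4:**
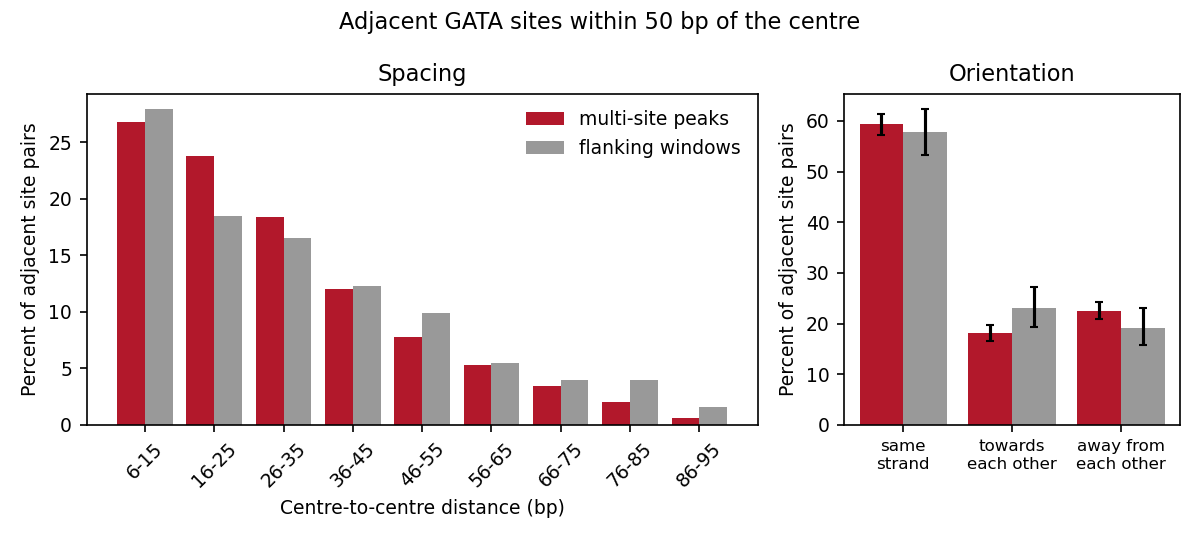
Distance in bp between the centres of adjacent GATA sites (left, in bins of 10 bp) and their orientation (right), as percent of the 2172 member pairs and of the 455 pairs in flanking windows. Error bars are 95% Wilson intervals. Both sets fall off with distance, with 26.8% and 27.9% of pairs at 6 to 15 bp, and same-strand pairs lead in both.

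Members lay in promoters less often than peaks without a site. Of the members 920 or 53.6% (51.2 to 56.0) were in a promoter window, against 56.7% of all IDR peaks and 60.4% (58.7 to 62.0) of 0-site peaks (two-sided Fisher's exact p = 4.29e-06, adjusted p = 1.71e-05). The share in 1-site peaks was 53.4%, a difference of 0.251 percentage points that did not pass (exact p = 0.896, adjusted p = 0.896). Introns outside promoter windows held 16.8% of members, intergenic sequence 23.7% and coding exons 48 members or 2.80% (2.12 to 3.69), against 2.31% (1.74 to 3.04) of 1-site and 0.857% (0.597 to 1.23) of 0-site peaks in coding exons. The promoter windows of more than 1 gene covered 6.35% of members, 6.92% of 1-site and 17.9% of 0-site peaks. The median distance to the nearest start was 650.0 bp in members, 696 bp in 1-site and 428 bp in 0-site peaks, and 71.3% of members lay upstream of that start.

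A tRNA gene lay within 250 bp of 8 members or 0.466%, of 2.07% of 1-site and of 5.79% of 0-site peaks. The repeat GAGAGAG was present in 4.02% of member windows, 9.27% of 1-site and 13.2% of 0-site windows, and the sequence GACGCAGA in 1.63%, 4.08% and 8.04%. The E-box CACGTG was present in 3.44% (2.67 to 4.41), 4.23% (3.44 to 5.18) and 4.26%. These shares were not tested.

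The X chromosome held 20.6% (18.8 to 22.6) of members, 20.2% of 0-site peaks and 20.9% of all IDR peaks, a difference that did not pass (two-sided Fisher's exact p = 0.741, adjusted p = 0.82). Its direction turned in the lists chosen within 30 bp, among the stronger 3723 peaks and in replicate 2 alone. Members made up from 19.4% (17.2 to 21.8) of peaks on chromosome III to 26.3% (24.0 to 28.6) on chromosome V, whose intervals do not overlap, and these shares were not tested. Each autosome was also cut into 3 parts of equal length. The outer parts held 57.8% of autosomal members, 55.4% of 1-site peaks, 53.8% of 0-site peaks and 55.2% of all autosomal IDR peaks. The outer parts are 2 of the 3, so all these shares are below that of an even spread over the length.

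In the promoter windows of 19973 protein-coding genes the members marked 1005 genes, or 5.03%. An IDR peak of any kind marked 4681 genes, and members were present at 21.5% of these. At 29 genes there were at least 2 members, and at sahd-1 there were 3, the highest with a signal of 141. The gene lists below were put together with earlier results of these data known, so they describe the members and are no evidence of their own. They were not tested, and a gene can have peaks of several classes. Of the 19973 genes, 1202 had a 1-site peak in the promoter window. No such count is given for peaks without a GATA site. The lists' counts of those peaks therefore have no baseline of all genes here.

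Of the 11 GATA factor genes 3 had a member, 1 had a 1-site peak and 0 had a 0-site peak. The share with a member was 27.3% (9.75 to 56.6), beside the 5.03% of all genes. Only 4 of these genes had any peak. The peak 429 bp upstream of elt-2, which encodes the main GATA factor of the intestine, had a signal of 166.6, with 104.7 in replicate 1 and 62.0 in replicate 2. The peak 380 bp upstream of elt-4, which encodes a small GATA factor related to ELT-2, had 75, with 54.5 and 23.2. The peak 444 bp upstream of elt-3, which encodes a GATA factor of the epidermis, had 38.7, with 33.1 and 6.60. The elt-2 peak was thus above the median of members in both replicates, and the elt-3 peak was below the median of members in both. The gene with a 1-site peak was elt-7, a partner of elt-2 in the intestine, with a signal of 63.8. The promoter windows of elt-1, egl-18, elt-6, end-1, end-3, med-1 and med-2 held no IDR peak.

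Intestine markers had members at 8 of 26 genes, or 30.8% (16.5 to 50), beside the 5.03% of all genes, and 7 had a 1-site and 2 a 0-site peak. Of the 16 with an IDR peak of any kind, 8 had a member, beside the 21.5% of all such genes. The peak of lys-8, which encodes a lysozyme, had a signal of 185.3, with 134.1 and 56.9 in the replicates. The peak of nhx-2, a sodium-proton exchanger of the intestinal surface, had 141.9, with 90.6 and 50.5, and that of act-5, the actin of the microvilli, had 141.1, with 104.7 and 36.9. These 3 were above the median of members in both replicates. The others were elt-2, the phosphatase gene pho-1 with 109.3, the intermediate filament gene ifb-2 with 108.4, the saposin-like gene spp-1 with 94.8 and the cathepsin gene cpr-6 with 63.4. With the strongest calls of replicate 2 alone 5 of the 26 had a member.

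Digestive and lysosomal proteases had members at 9 of 20 genes (interval of the share 25.8% to 65.8%), 1-site peaks at 8 and 0-site peaks at 2, with 17 genes marked by any peak. The cpr-3 peak led. The others named are asp-2, an aspartyl protease, with a signal of 103.0, cpz-1, a cathepsin Z, with 76.6, and cpl-1, a cathepsin L, with 70.2. At cpz-1 the replicates differed, with 74.2 in the first and 7.42 in the second. The neighbours asp-6 and asp-12 share a single peak of 37.3. In replicate 2 alone 5 of the 20 had a member.

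Of 34 genes of fatty acid metabolism, 18 of which had any peak, 10 had a member, 6 a 1-site and 4 a 0-site peak. The share with a member was 29.4% (16.8 to 46.2), beside the 5.03% of all genes. Among those with any peak it was 55.6%, beside the 21.5% of all such genes. The peak of lbp-3, a fatty acid binding protein, had 206.1, with 131.3 and 75.1 in the replicates. That of its relative lbp-7 had 154.9, that of the desaturase gene fat-4 had 140.0 and that of the elongase gene elo-9 had 126.3. Of 240 C-type lectin genes, which encode carbohydrate-binding proteins many of which respond to infection, 25 or 10.4% (7.16 to 14.9) had a member, 19 a 1-site and 7 a 0-site peak, and 49 had any. The clec-78 peak had 306.6, with 183.1 and 122.9, and its 3 sites were all extended. The clec-170 peak had 205.3 and the clec-41 peak 176.1. The genes clec-62 and clec-63 share 1 peak of 147.7. Among 14 P-glycoproteins, which are export pumps, 3 or 21.4% (7.57 to 47.6) had a member, the highest at pgp-1 with 137.9. Of those with any peak 42.9% had a member.

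Detoxification enzymes had members at 24 of 185 genes, or 13.0% (8.88 to 18.6), 1-site peaks at 31 and 0-site peaks at 25, with any peak at 75. Of the detoxification genes with any peak 32.0% had a member, beside the 21.5% of all such genes. The glycosyltransferase genes ugt-26, ugt-46 and ugt-44 had signals of 169.4, 159.8 and 134.6, and the glutathione transferase gene gst-42 had 125.3. Of 26 bZIP genes, the family of fos-1 itself, 7 had a member, 8 a 1-site and 13 a 0-site peak, and 20 had any. The share of bZIP genes with a member was 26.9% (13.7 to 46.1), beside the 5.03% of all genes, and 35.0% among those with any peak. The zip-5 peak had 201.2, with 142.6 and 61.5. The peak of zip-2, which encodes a factor of the response to infection, had 162.5, with 108.0 and 52.1. The peak of jun-1, which encodes the Jun protein of the worm, had 143.9, with 114.9 and 34.2. That of atf-4, a factor of the stress response, had 132.4. Of 274 nuclear hormone receptor genes, 17 or 6.20% had a member, 30 a 1-site and 50 a 0-site peak, and 97 had any. Of the receptor genes with any peak 17.5% had a member. Both receptor shares are near the baselines of 5.03% and 21.5%, and the interval of the first, 3.91% to 9.71%, includes its baseline. In replicate 2 alone 10 of the 274 had a member. The highest in the IDR list was nhr-291 with 254.0.

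The other lists had 0 to 11 genes with a member each. Of 79 genes of cytosolic ribosomal proteins 0 had a member (interval to 4.64%), 4 had a 1-site peak and 64 had a 0-site peak. Of 22 genes of the V-ATPase, the proton pump of lysosomes, 2 or 9.09% (2.53 to 27.8) had a member and 12 a 0-site peak. The 2 were vha-6, whose subunit is known from the intestine, with 65.7, and vha-2 with 48.7. Panneuronal genes had a member at 0 of 18 (interval to 17.6%) and germline genes at 0 of 23 (interval to 14.3%). Only 3 genes of each of these lists had any peak, and both intervals include the 5.03% of all genes. Body wall muscle markers had 1 of 22, deb-1, the vinculin gene, with 59.7. Epidermis and seam markers had 2 of 21, or 9.52% (2.65 to 28.9), ajm-1, a junction protein, with 131.3, and elt-3. The insulin pathway had 1 of 15, or 6.67% (1.19 to 29.8), the kinase gene sgk-1 with 88.6. Cuticle collagens had 6 of 156, or 3.85% (1.77 to 8.14), led by col-149 with 101.6, and 14 had any peak. Chemoreceptors had 11 of 1309, or 0.840%, led by srz-62, and 40 had any peak. Beside the 5.03% of all genes, the shares of the V-ATPase, epidermis and insulin lists were higher. Those of the others in this group were lower. The order changed among genes with any peak, beside the 21.5% of all such genes. There the V-ATPase share, 13.3%, was lower. Collagens had 42.9%, muscle and epidermis 33.3% each and chemoreceptors 27.5%, all higher, and the insulin share was also higher. The ribosomal, panneuronal and germline shares stayed at 0. Some of these rest on few genes, with only 3 muscle genes having any peak. In replicate 2 alone germline genes had 1 member, the epidermis list had 1 in each replicate alone, and in replicate 1 alone the V-ATPase list had 1, muscle 0, collagens 3 and chemoreceptors 7.

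**Figure D5:**
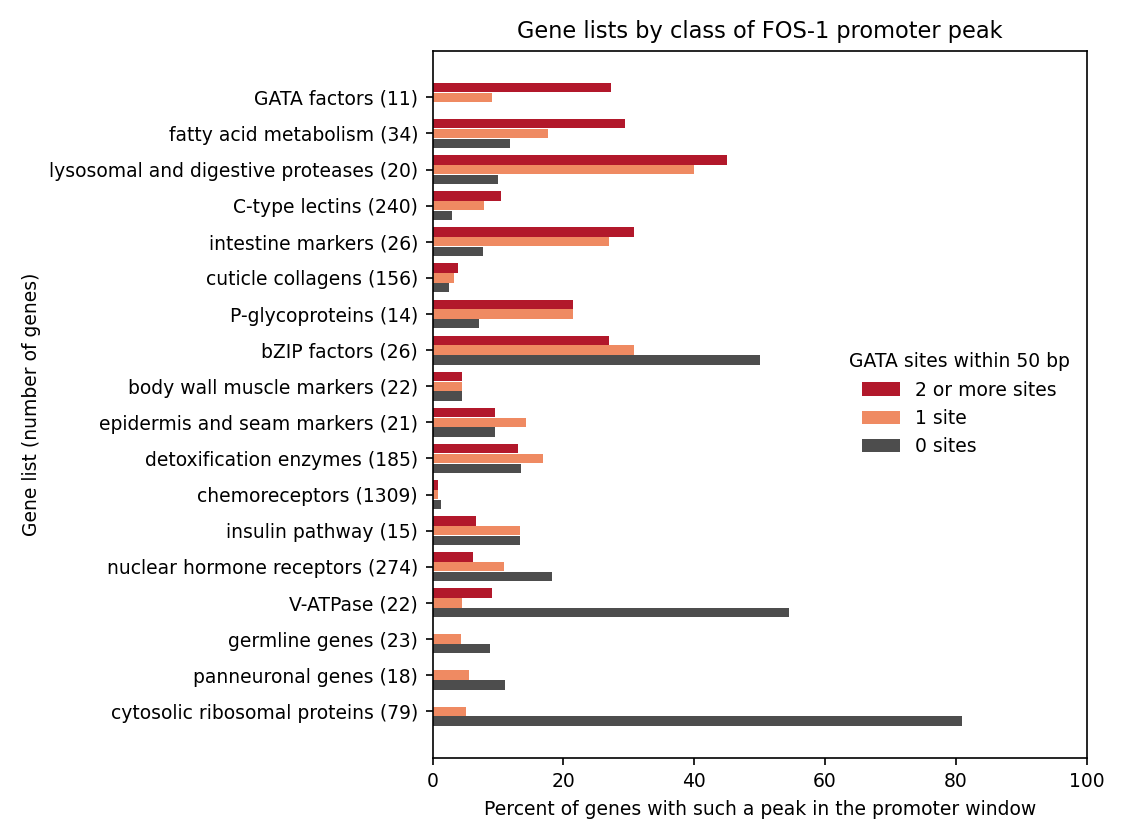
Percent of the genes of each list with a peak of the given class in the promoter window, for peaks with at least 2, 1 and 0 GATA sites within 50 bp, with the number of genes in brackets. Lists are ordered by the share of their genes with any peak that have a member, from 75% for GATA factors to 0 for the ribosomal, panneuronal and germline lists. The proteases have the longest bar for members, at 45%, and the ribosomal proteins the longest for 0-site peaks, at 81.0%.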

How the data were processed

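ChIP-seq peak lists on ce11 from whole L2 larvae, 1 group of 2 replicates, were used. Per the deposited manifests, the authors made a list for each replicate and for the pooled replicates against a control, which was not analysed here, and an IDR-thresholded list. The read depth is unknown, and the aligner and peak caller were not given in the sources used here. Each deposited signal value is the peak caller's own and is not normalized between lists. The deposited −log10 q-value was 4.25 for all IDR peaks and ranked none. The summit offsets are the authors'. The ce10 lists were not used.

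Sites were counted in WBcel235 sequence with Python 3.11.15, NumPy 2.4.6 and SciPy 1.17.1. Genes are those of Ensembl release 115, where asp-10 and bus-8 matched none. Shares were compared by two-sided Fisher's exact test with Benjamini-Hochberg adjustment over 12 tests, at an adjusted threshold of 0.05. The 12 include the share of peaks with clusters, whose outcome was known beforehand. Its place among them can lower the other adjusted p-values. Shares have 95% Wilson intervals and medians have order-statistic intervals. The site counts, Fisher's test and the intervals of medians were tested on simulated data, and the Wilson intervals were not. A replicate's value at an IDR peak is that of its overlapping call with the nearest summit. The members, lists and tests were chosen with earlier results of these data known. Named genes are those nearest to the 20 members of highest signal or to members with most or closest sites, and up to 4 per list. Alternatives were other windows, flanks, promoters and thresholds, each replicate alone, the stronger 3723 peaks, and low-ranked calls as background. For gene counts, 1-site peaks in place of members were also counted.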

Additional observations from a re-analysis of the deposited data

How the results depend on the processing

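Among the comparisons of a share or count with its alternatives, 86 were kept, 17 turned, 9 no longer passed and 3 newly passed. A share was kept when its direction and side of the threshold stayed. The count of genes with a member has no threshold and was kept when within 1.5 times of 1005. Its alternatives included 1-site peaks in place of members, with 1202 genes, which is a contrast of classes and not of processing. The cause of the changes was not tested. The promoter share against 0-site peaks kept its direction and side of the threshold in every alternative run. The share of peaks with clusters is also among the 86. It was known to be high when the members were chosen, so its being kept is no test of it. With the window of 30 bp, the share in the fifth of highest signal against 1-site peaks was 22.8%, the outer-site share 48.4% against both classes, the share on X 18.6% and the same-strand share 62.2%. With 75 bp, the outer-site share against 1-site peaks was 46.0%, pairs within 20 bp 32% and the extended share 28.9%. With AP-1 peaks kept, the promoter share was 53.6% (1-site 53.6%) and the extended share 30.3%. With overlapping sites counted, pairs within 20 bp made up 42.5% and extended sites 30.2%. In the stronger 3723 peaks the share in the fifth of highest signal was 20.8%, the promoter share 55.4% (1-site 55.5%), X 18.6%, the outer-site share 55.1% (1-site 56.9%), same-strand pairs 58.3% and the share strong in both replicates 99.1%. With flanks at 500 bp, pairs within 20 bp were 39.4% against 39.8%. Against low-ranked calls, same-strand pairs were 59.4% against 60.5% and pairs within 20 bp 39.4% against 41.3%. Pairs within 12 bp were 19.8% in both. Outside promoters the share in the fifth of highest signal was 21.4%. With 2000 bp upstream the promoter share was 66.8% (1-site 68.4%). In the ring ending at 200 bp the outer-site share was 40.6%. Cores starting with T made up 80.9% (1-site 72.2%), a difference that turned and passed. Without either replicate in turn the share on X ran from 20.4% to 20.6%. No value could be had without a replicate for the share strong in both. Leaving out peaks near a stronger summit removed 0 peaks and is not counted here. Of 90 list counts under alternatives, 22 moved by over 1.5 times or to or from 0. Both numbers include counts of genes with 1-site peaks in place of members, which contrast classes and do not show dependence on processing. No paired analysis was possible because there is only 1 group. The unknown depth limits what a lower signal shows.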
